A study of Homo sapiens with 4 samples.

Results

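Citrate and isocitrate sit where the citric acid cycle meets fat synthesis, iron control and NADPH supply, and the transcripts of 9 enzymes and subunits around them were followed in gastric cancer cells given lactate. The genes were chosen by name: CS, ACO1, IDH1, IDH2, IDH3A, IDH3B, IDH3G, OGDH and FH. Each of the 9 had 1 row among the 60666 rows of the deposited table, and all 9 were among the 15051 rows that averaged 1 TPM or more and entered the test. HGC27 is an established human gastric cancer line. In the lactate group (n = 2) the cells were kept for 24 h in glucose-free DMEM to which 25 mM lactate had been added, and in the no glucose group (n = 2) they were kept in glucose-free DMEM without it. A culture time was found for the lactate group only. Serum and antibiotics were in the medium of both groups, and the labels name no genetic change in either. The study concerned lactate and the Hippo pathway in gastric cancer. All values come from 1 cell line. Whether both samples of a group came from cultures of their own is not stated in the labels, and the p-values then reflect only how far these libraries scatter, which may be technical. TPM is a transcript's share of its library, scaled to length, log2 fold changes were taken on the log2 of TPM + 1, and folds without log2 are ratios of mean TPM.

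Citrate synthase joins acetyl-CoA to oxaloacetate in the mitochondrion, and aconitase turns the citrate into isocitrate. Isocitrate dehydrogenases then remove carbon dioxide and give 2-oxoglutarate. The NAD-dependent enzyme IDH3 works within the cycle, whereas IDH1 in the cytosol and IDH2 in the mitochondrion use NADP and can produce NADPH, the reducing agent of lipid synthesis and antioxidant defence. Citrate that leaves the mitochondrion is cleaved to acetyl-CoA for lipid synthesis, or enters the cytosolic branch through ACO1 and IDH1.

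Lactate went with more transcript of the mitochondrial NADP-dependent enzyme, and the other 8 genes did not pass the test. IDH2 rose 1.49-fold and was the 1 gene called among the 9 (adjusted p = 0.0420, limma). IDH1 stood 1.35-fold and ACO1 1.24-fold above no glucose without passing it, and IDH3A stood at 0.764 and CS at 0.888 of their no glucose mean, also without passing. The share of all tested rows that were called was 6.59%, and 4.69% were called higher, so 1 of 9 is near the background. Both lactate libraries lay on the same side of both no glucose libraries for 7 of the 9 genes, 4 higher and 3 lower, and the same held for 58.4% of all tested rows. The median log2 fold change of the 9 genes was 0.05, against 0.08 over all tested rows.

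**Figure D1:**
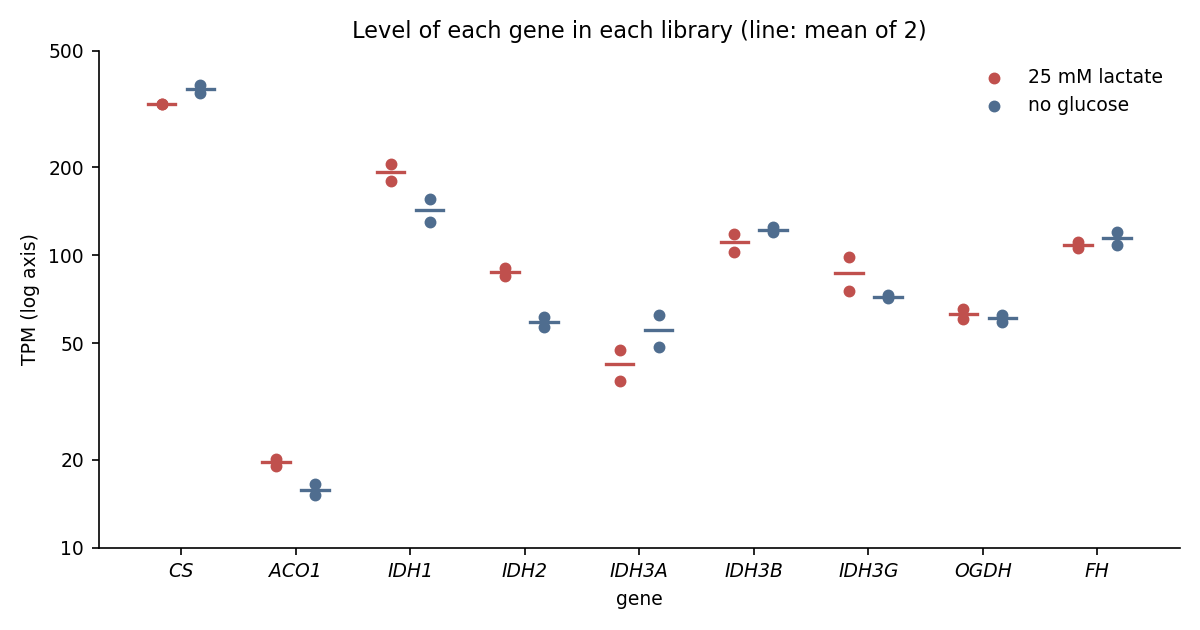
TPM of the 9 genes in each library on a log axis, with lactate left of no glucose for each gene; points are single libraries (n = 2 per group) and bars are group means. CS lies highest and ACO1 lowest in every library, and the IDH2 points of lactate (85.07 and 90.58 TPM) clear those of no glucose (56.79 and 61.39 TPM).

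IDH2 encodes the mitochondrial NADP-dependent isocitrate dehydrogenase and lies at chr15:90083045-90102504 on the minus strand (GRCh38, GENCODE release 29). Its transcript was listed at 90.58 and 85.07 TPM in lactate and at 61.39 and 56.79 TPM in no glucose. Both lactate libraries were thus well above both no glucose libraries, and the gap between the groups was wider than the spread within either. The group levels were 87.8 ± 3.9 TPM in lactate and 59.1 ± 3.25 TPM in no glucose (mean ± SD, n = 2 each). The log2 fold change of IDH2 was 0.56 ± 0.10 (SE). Its 95% interval ran between 0.32 and 0.81. The call of IDH2 was lost when TPM was rescaled by median ratios, which gave 0.45 at an adjusted p of 0.0740 (limma). The adjusted p of IDH2 (limma) was 0.118 with no filter on low values and 0.0837 with no trend in the variance prior. Over all rows these settings called only 0 and 4, so hardly any call could be kept and their loss says little about IDH2. When any 1 of the 4 libraries was left out, the log2 fold change of IDH2 was 0.51 to 0.62. Such a fit leaves 1 library in a group and cannot decide the call.

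IDH1, at chr2:208236227-208266074 on the minus strand, encodes the cytosolic and peroxisomal NADP-dependent enzyme. It was listed at 179.24 and 205.43 TPM in lactate and at 129.57 and 155.50 TPM in no glucose. The groups did not overlap, but the libraries of each group differed from each other by about as much as the gap between the groups. The log2 fold change of IDH1 was 0.43 ± 0.13 (SE; 95% interval 0.11 to 0.76) and did not pass the test across all rows (adjusted p = 0.106, limma). An antisense gene, IDH1-AS1, overlaps IDH1 on the opposite strand and was listed at 6.09 and 3.33 TPM in lactate and at 3.08 and 2.36 TPM in no glucose. Whether reads were counted by strand is not given in the sources used here, so reads of the 2 genes cannot be told apart where they overlap. The longest run of bases shared by any IDH1 and IDH2 transcript was 17 bases.

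Since IDH1 and IDH2 do the same chemistry in different compartments, their TPM ratio was taken within each library, where the scaling of the library cancels. The IDH1 to IDH2 ratio was 1.98 and 2.41 in lactate and 2.11 and 2.74 in no glucose. The groups overlapped, and the difference of −0.14 on the log2 scale gave p = 0.667 in an exact two-sided permutation test. With 2 libraries against 2 the smallest p this test allows is 0.333, so none of the 4 ratios described here could pass 0.05. The difference of the IDH1 to IDH2 ratio changed sign when lactate replicate 1 was left out (0.0065) and when no glucose replicate 2 was left out (0.051).

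IDH3 is the NAD-dependent enzyme of the cycle and is built from a catalytic alpha subunit (IDH3A) and the beta and gamma subunits (IDH3B and IDH3G). IDH3A, at chr15:78131498-78171949 on the plus strand, was listed at 37.15 and 47.56 TPM in lactate and at 62.34 and 48.51 TPM in no glucose. The groups did not overlap, but only the step between 47.56 and 48.51 TPM kept them apart, and within each group the libraries differed by more. The log2 fold change of IDH3A was −0.38 ± 0.18 (SE; 95% interval −0.83 to 0.07; adjusted p = 0.235, limma). CIB2, which encodes a calcium-binding protein, overlaps only the outer end of IDH3A on the opposite strand. The CIB2 gene ends at chr15:78131544, whereas all 10 coding transcripts of IDH3A start downstream of chr15:78149320. CIB2 was higher in lactate (9.84 and 13.37 TPM) than in no glucose (5.27 and 4.84 TPM, adjusted p = 0.0419, limma), and its part in the IDH3A value was not tested.

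IDH3B, at chr20:2658395-2664219 on the minus strand, had 118.45 and 102.74 TPM in lactate and 124.69 and 120.02 TPM in no glucose. IDH3G, at chrX:153785766-153794523 on the minus strand, had 98.80 and 75.45 TPM in lactate and 71.22 and 73.01 TPM in no glucose. Lactate was thus the lower group for IDH3B and the higher one for IDH3G, in both cases with 1 lactate library close to the no glucose values. Their log2 fold changes were −0.15 ± 0.11 for IDH3B (SE, adjusted p = 0.405, limma) and 0.26 ± 0.15 for IDH3G (SE, adjusted p = 0.314). SSR4, a subunit of the translocon-associated protein complex, overlaps the start of IDH3G on the opposite strand and was listed at 522.3 and 450.14 TPM in lactate and at 452.09 and 406.22 TPM in no glucose. The lactate library with the higher IDH3G value also had the highest SSR4 value, and its part in the IDH3G value was not tested.

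Of the summed IDH3 TPM in a library, IDH3A made up 14.6% and 21.1% in lactate and 24.1% and 20.1% in no glucose. The groups overlapped, and the difference of −4.28 percentage points gave p = 0.667 (exact two-sided permutation test). IDH3B held 46.6% and 45.5% in lactate and 48.3% and 49.7% in no glucose, and IDH3G held 38.8% and 33.4% in lactate and 27.6% and 30.2% in no glucose. IDH3A was therefore the least abundant of the 3 subunit transcripts per length in every library. The summed IDH3 TPM was 254.4 and 225.75 in lactate and 258.25 and 241.54 in no glucose, so the 2 groups overlapped in their total.

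The NADP-dependent transcripts together were set against the NAD-dependent ones in a ratio that was chosen after the values were seen. IDH1 plus IDH2 gave 269.82 and 290.5 TPM in lactate and 190.96 and 212.29 TPM in no glucose. Divided by the summed TPM of IDH3A, IDH3B and IDH3G, this was 1.06 and 1.29 in lactate and 0.739 and 0.879 in no glucose. Both lactate libraries were above 1 and both no glucose libraries below it. The difference was 0.54 on the log2 scale with p = 0.333, the smallest value the exact permutation test can give here.

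**Figure D2:**
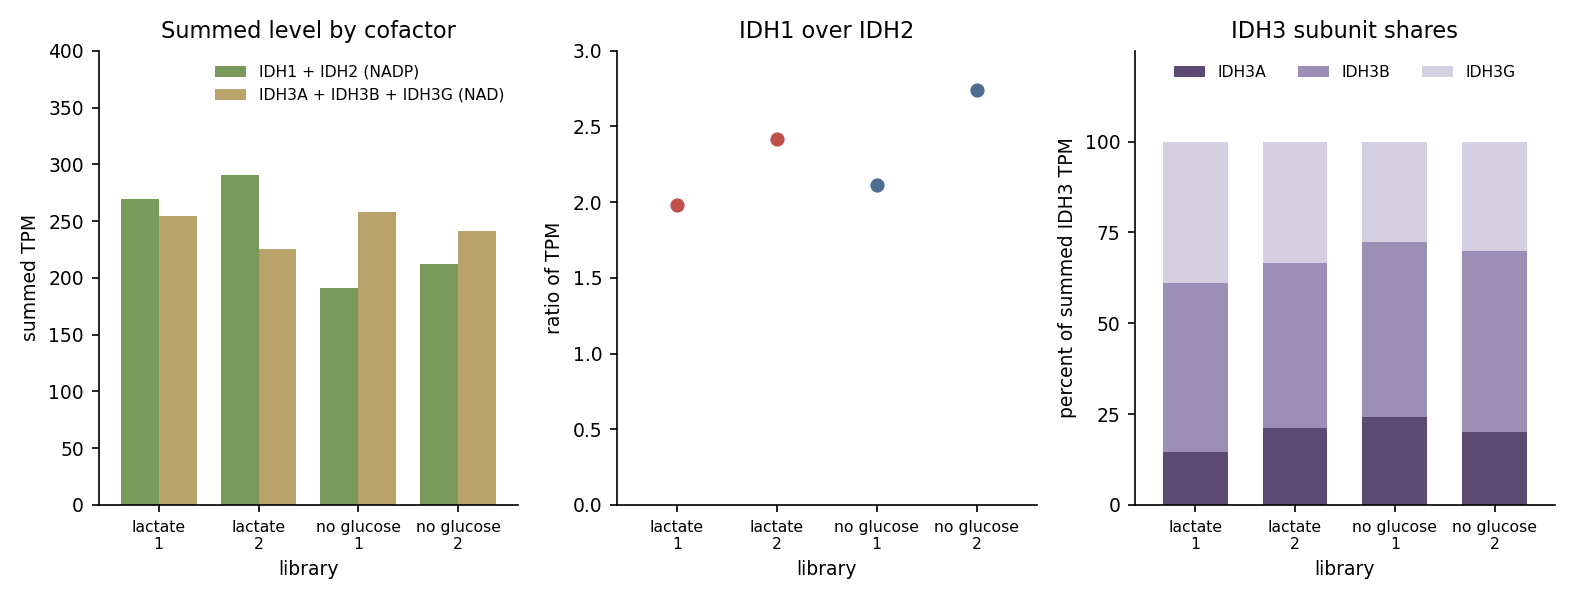
Isocitrate dehydrogenase transcripts by library, lactate left of no glucose: summed TPM of the NADP-dependent (IDH1 and IDH2) and NAD-dependent (IDH3A, IDH3B and IDH3G) genes as bars, the IDH1 to IDH2 ratio of TPM as points, and the percent of summed IDH3 TPM held by each subunit as stacked bars. The NADP-dependent sum exceeded the IDH3 sum in both lactate libraries and lay below it in both no glucose libraries, a comparison chosen after the values were seen. The IDH1 to IDH2 ratio and the IDH3A share overlapped between the groups.

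CS encodes citrate synthase, the entry enzyme of the cycle, at chr12:56271699-56300392 on the minus strand, and was the most abundant of the 9 transcripts. It was listed at 328.87 and 329.45 TPM in lactate and at 382.88 and 358.13 TPM in no glucose. The lactate libraries were almost equal and both lay below the no glucose libraries. The log2 fold change of CS was −0.17 ± 0.08 (SE; 95% interval −0.38 to 0.04; adjusted p = 0.243, limma). A protein-coding readthrough gene, AC073896.1, runs over CS on the same strand and shares a run of 220 bases with it. It was listed at 54.68 and 59.99 TPM in lactate and at 64.96 and 91.17 TPM in no glucose, lower in lactate like CS (log2 fold change −0.42, adjusted p = 0.198, limma), so the split of reads between AC073896.1 and CS is uncertain.

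ACO1, at chr9:32384603-32454769 on the plus strand, encodes the cytosolic aconitase, a protein that binds RNA as iron regulatory protein when its iron-sulphur cluster is lost. It was the least abundant of the 9 transcripts, at 19.07 and 20.17 TPM in lactate and 15.11 and 16.50 TPM in no glucose. The groups did not overlap, and the log2 fold change of ACO1 was 0.30 ± 0.11 (SE; 95% interval 0.01 to 0.58; adjusted p = 0.167, limma). The ACO1 to CS ratio was 0.0580 and 0.0612 in lactate and 0.0395 and 0.0461 in no glucose. Both lactate ratios were above both no glucose ratios, with a difference of 0.48 on the log2 scale and p = 0.333, again the smallest the exact test allows. ACO1 shares a run of 40 bases with IREB2, the other iron regulatory protein.

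OGDH encodes the entry subunit of the 2-oxoglutarate dehydrogenase complex, which consumes the product of IDH3, and lies at chr7:44606572-44709066 on the plus strand. It had 65.49 and 60.69 TPM in lactate and 62.63 and 58.98 TPM in no glucose. FH encodes fumarase, which hydrates fumarate to malate near the end of the cycle, at chr1:241497603-241519761 on the minus strand. It had 106.12 and 110.85 TPM in lactate and 108.65 and 120.47 TPM in no glucose. The groups overlapped for OGDH and for FH. The log2 fold change was 0.05 ± 0.10 for OGDH (SE; 95% interval −0.20 to 0.30) and −0.08 ± 0.10 for FH (SE; 95% interval −0.32 to 0.17), with adjusted p-values of 0.765 and 0.646 (limma). The sign of OGDH was not stable, since it was −0.06 with median-ratio scaling and close to 0 without lactate replicate 1.

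**Figure D3:**
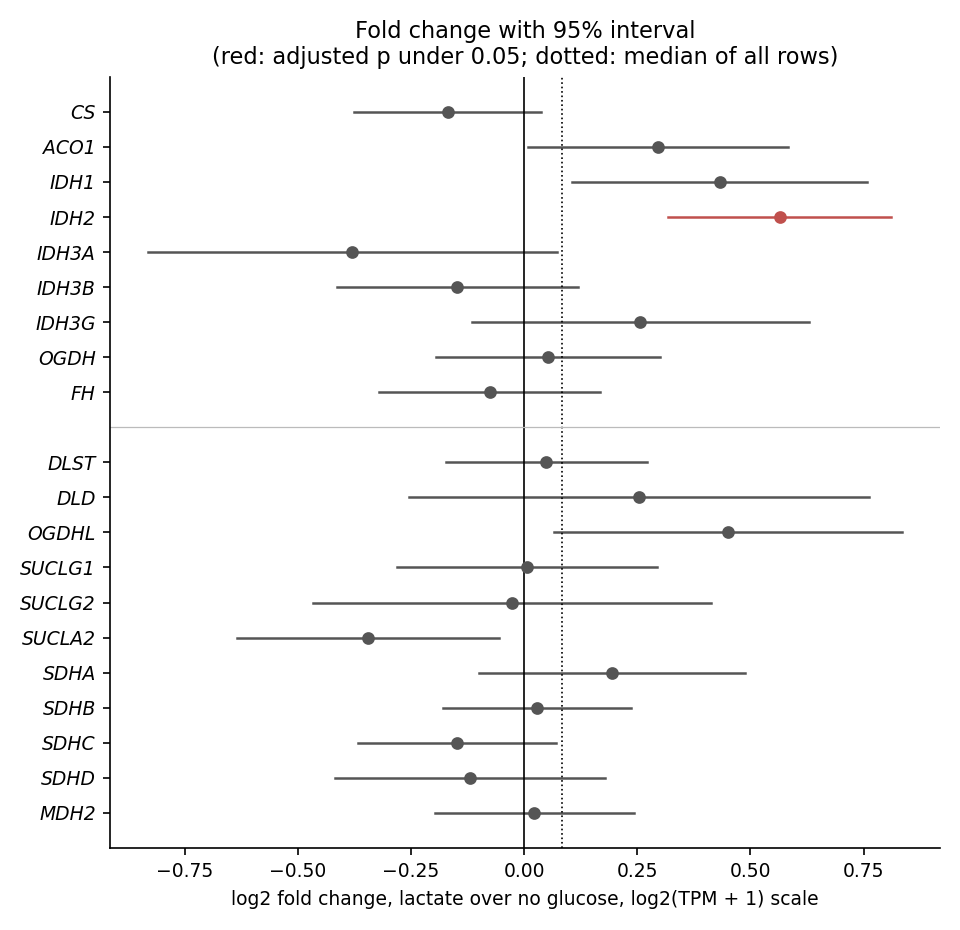
Log2 fold change, lactate over no glucose, taken on log2 of TPM + 1, for the 9 genes (upper block) and 11 other enzymes of the citric acid cycle (lower block); points are limma estimates, bars 95% intervals (n = 2 per group), and the dotted line is the median of all tested rows. Among the 9 genes the intervals of IDH2, IDH1 and ACO1 lie above 0 and the other 6 include 0, and of all genes shown only IDH2 (red) had an adjusted p under 0.05.

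As TPM is scaled to length, levels can also be set side by side between genes. In lactate the order of mean TPM was CS, IDH1, IDH3B, FH, IDH2, IDH3G, OGDH, IDH3A and ACO1. In no glucose it was CS, IDH1, IDH3B, FH, IDH3G, OGDH, IDH2, IDH3A and ACO1. IDH2 stood above IDH3G and OGDH in lactate and below both in no glucose, and the other genes kept their order relative to each other. The ranges of IDH3B and FH overlapped in both groups, and those of IDH2 and IDH3G overlapped in lactate. In no glucose IDH2 overlapped with its neighbours OGDH and IDH3A, and the remaining neighbours were apart in both groups. The mean over the 4 libraries put ACO1 above 59.4% and CS above 97.9% of tested rows. The TPM of the 9 genes summed to 1044 and 1037 in lactate and to 1018 and 1008 in no glucose.

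The DNA before the start of the isocitrate dehydrogenase genes was read for motifs, and 3 stretches are printed because they hold the motif matches outside annotated exons in IDH2, IDH3A and IDH1, the genes furthest from 0 among the 9. Windows of 250 bases before the start were taken from RefSeq (GRCh38.p14) for 8 of the 9 genes. These were 9 windows, because IDH1 has an additional window before another start, and OGDH has none here. The motif of TEAD factors, GGAATG on either strand, was the letters of interest because the study concerned YAP and TEAD, and 11.9% of the windows of all genes held it. It was found in IDH2, 90 bases before the start, and in IDH3A, 123 bases before the start, which were the gene that rose and a gene whose mean was lower in lactate. The antioxidant response element, TGACNNNGC on either strand, was in 10.9% of windows and in IDH1, 143 bases before the start. The matches are in capitals in the 3 stretches below, each 5′ to 3′ on the strand of its gene and cut to leave out annotated exons.
IDH2 chr15:90100696-90100871 minus strand: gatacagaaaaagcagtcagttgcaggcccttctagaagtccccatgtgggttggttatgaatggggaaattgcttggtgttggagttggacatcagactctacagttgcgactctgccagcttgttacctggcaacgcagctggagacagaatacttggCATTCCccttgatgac
IDH3A chr15:78149112-78149320 plus strand: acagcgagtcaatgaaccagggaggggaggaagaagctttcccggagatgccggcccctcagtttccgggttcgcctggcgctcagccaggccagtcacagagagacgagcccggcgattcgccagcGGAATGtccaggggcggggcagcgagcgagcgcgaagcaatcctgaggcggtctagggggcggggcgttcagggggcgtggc
IDH1 chr2:208255134-208255246 minus strand: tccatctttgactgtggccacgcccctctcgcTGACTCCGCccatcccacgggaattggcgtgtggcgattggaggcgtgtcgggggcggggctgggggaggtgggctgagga

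For IDH2, 2 of 3 coding transcripts in GENCODE start upstream of this window, by up to 1633 bases, and for IDH1 2 of 6 do, so these stretches stand before an internal start. The DNA before the farthest upstream start of IDH2 was not read for motifs. All 10 coding transcripts of IDH3A start downstream of its window. The TPM table gives 1 value a gene and does not say which start was used. The antioxidant response element also occurred in IDH3G, and the NRF1 motif TGCGCA, present in 6.89% of windows, in IDH3B and IDH3G, all of them within annotated exons. None of the 8 genes held the E-box CACGTG (6.34% of windows), the cyclic AMP response element TGACGTCA (1.65%) or the SREBP element TCACNCCAC (0.883%). A match says only that the letters are there, and no binding was measured.

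The rest of the pathway was read from lists of related genes, and the counts cover the genes reported here. Some genes of these lists, called ones among them, are left out, so a count of 0 called may not hold for a whole list. Counts set beside the shares of all tested rows are limited in the same way. Of 11 other enzymes of the citric acid cycle, 0 were called by limma and 2 had an unadjusted p under 0.05, which 28.2% of all tested rows had. The 2 were OGDHL, higher in lactate, and SUCLA2, lower in lactate. SUCLA2 had 36.9 and 42.53 TPM in lactate and 52.37 and 48.89 TPM in no glucose (log2 fold change −0.35, adjusted p = 0.129, limma). In this list 7 had a log2 fold change above 0 and 4 below, and the median was 0.02. MDH2, the mitochondrial malate dehydrogenase and the most abundant of them, had 281.76 and 259.30 TPM in lactate and 270.62 and 261.73 TPM in no glucose. The groups overlapped. OGDHL was named for its role and not by the rule for naming genes. It is a close relative of OGDH that shares a run of 43 bases with it, and had 5.35 and 5.10 TPM in lactate and 3.63 and 3.48 TPM in no glucose (log2 fold change 0.45, adjusted p = 0.133, limma).

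Among 7 genes by which carbon enters the cycle, the pyruvate dehydrogenase and pyruvate carboxylase genes among them, 0 were called by limma, 0 had an unadjusted p under 0.05, and the median was 0.03. Its most abundant gene was PDHA1, the alpha subunit of pyruvate dehydrogenase, with 139.50 and 115.22 TPM in lactate and 127.48 and 100.15 TPM in no glucose. The libraries numbered 1 were the higher ones in both groups.

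Of 10 genes of citrate export, the malate shuttle and NADPH supply reported here, 9 were tested, 0 were called by limma and 1 had an unadjusted p under 0.05. ME1 (malic enzyme) and PGD (6-phosphogluconate dehydrogenase), which make NADPH and were named for their role, had log2 fold changes of 0.43 and 0.18 (adjusted p = 0.108 and 0.227, limma). NNT and ME2 of the same list had 0.01 and −0.05 (adjusted p = 0.980 and 0.827, limma). Of the tested genes 6 were above 0 and 3 below. MDH1, the cytosolic malate dehydrogenase and the most abundant of this group, had 256.81 and 256.91 TPM in lactate and 247.58 and 249.82 TPM in no glucose. The median of the 9 tested genes was 0.02.

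Of 14 genes that exchange glutamate with 2-oxoglutarate, 12 were tested and 0 were called by limma (2 had an unadjusted p under 0.05), with 10 of them above 0 and a median of 0.08. PSAT1, a transaminase of serine synthesis that releases 2-oxoglutarate, was the most abundant, with 526.84 and 619.49 TPM in lactate and 551.11 and 633.09 TPM in no glucose.

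Because ACO1 is also an iron regulatory protein, a list of partners and targets of such proteins was read beside it. Of 7 genes, 4 had an unadjusted p under 0.05 (SLC40A1, TFRC, FTL and FTH1), which 28.2% of all tested rows had. The iron exporter ferroportin, SLC40A1, was the 1 called, and 6.59% of all tested rows were called. It was listed at 4.92 and 5.44 TPM in lactate and 2.31 and 1.90 TPM in no glucose (log2 fold change 0.99 ± 0.18, SE, adjusted p = 0.0450, limma). SLC40A1 missed the threshold with median-ratio scaling (adjusted p = 0.0545, limma), with no filter on low values (0.151) and with no trend in the prior (0.0598). The last 2 settings called only 0 and 4 of all rows, so they say little about SLC40A1. Without any 1 library its log2 fold change was 0.90 to 1.09, in fits that cannot decide the call. FTH1, the ferritin heavy chain, had 3365 and 3398 TPM in lactate and 3009 and 2820 TPM in no glucose, and it was not called (adjusted p = 0.142). FTL, the ferritin light chain, named after its values were seen, had 1043 and 967 TPM in lactate and 822 and 845 TPM in no glucose (log2 fold change 0.27, adjusted p = 0.108, limma). The transferrin receptor TFRC, named for its role, had 82.35 and 92.67 TPM in lactate and 112.17 and 115.41 TPM in no glucose (log2 fold change −0.38, adjusted p = 0.0834), and was called only with median-ratio scaling among the settings tried (adjusted p = 0.0497). The values of IREB2, also named for its role, were 22.39 and 28.04 TPM in lactate and 28.16 and 29.64 TPM in no glucose. SLC11A2 and FBXL5, given to complete the 7 genes, had log2 fold changes of 0.15 and 0.18 (adjusted p = 0.383 and 0.483, limma).

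Of 13 genes reported here that build the iron-sulphur clusters which aconitases need, 0 were called by limma and 2 had an unadjusted p under 0.05. The log2 fold change was above 0 for 7 of them and below 0 for 6, with a median of 0.01. BOLA3, the most abundant of them and a factor that passes clusters to their targets, had 123.13 and 131.36 TPM in lactate and 138.58 and 137.94 TPM in no glucose.

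**Figure D4:**
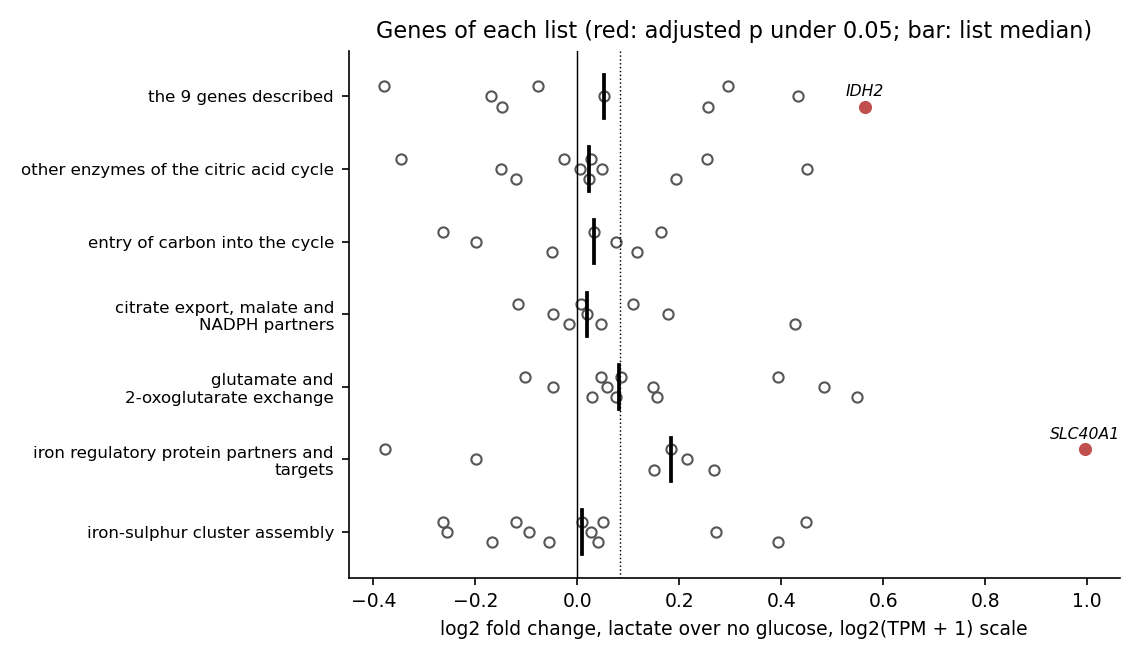
Log2 fold change, lactate over no glucose, of every tested gene among the 9 genes described and in the 6 related lists, as far as reported here; each circle is a gene, red where limma gave an adjusted p under 0.05, thick bars are list medians and the dotted line is the median of all tested rows. The medians lie between 0.01 and 0.18, and the called genes shown are IDH2 and SLC40A1.

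Marker genes were read to check the label of the cells. VIM, a filament gene of mesenchymal cells, was listed at 2943 and 2747 TPM in lactate and 2915 and 2984 TPM in no glucose, while the epithelial markers KRT18, KRT19 and EPCAM stayed under 1 TPM in every library. The epithelial markers KRT8 and CDH1 passed the filter. KRT8 was called, higher in lactate (6.07 and 6.0 TPM) than in no glucose (2.08 and 1.87 TPM, adjusted p = 0.0328, limma), as 4.69% of all tested rows were. CDH1 overlapped between the groups (3.76 and 1.63 TPM in lactate, 1.95 and 0.83 TPM in no glucose) and was not called (adjusted p = 0.371, limma). The 12 markers of other cell types were all under the filter, 5 of them were at 0 in all 4 libraries, and their summed level was 1.65 to 1.76 TPM in lactate and 1.06 to 1.90 TPM in no glucose. Depth is unknown because TPM keeps no record of it. In bulk RNA, fewer cells of a kind and less RNA per cell cannot be told apart.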

How the data were processed

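RNA-seq was made from HGC27 cells, 2 libraries with lactate and 2 without glucose. The authors deposited 1 table in TPM (scaled to transcript length and library total, 2 decimals), whose columns summed to 995439 to 996089. The submitters' processing notes name RSEM 1.3.3 and hg38. For the aligner, annotation and strand setting nothing was given in the sources read. The depth is unknown, so no counting interval was computed. Rows averaging 1 TPM or more (15051) were tested as log2(TPM + 1), a scale that understates the change of low genes, with limma 3.58.1 (R 4.3.3; trended prior, group only, two-sided, Benjamini-Hochberg over all rows, called under 0.05), with 2 residual degrees of freedom. On data simulated for this comparison (15051 genes), 65% of log2 changes of 1 and 94% of log2 changes of 2 were recovered, and 3.64% of calls were false. Such rates are favourable by design, since the simulated noise followed limma's own prior and only genes with levels over the median were altered. Smaller changes, such as the 0.56 of IDH2, were not simulated, so no recovery rate is known for them. Ratios were taken within libraries and tested with exact permutation (scipy 1.17.1). Coordinates are from GENCODE release 29 (GRCh38) and promoter windows from RefSeq (GRCh38.p14).

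The 9 genes and the related lists were chosen with earlier results of these data known. All 9 genes are given. Some genes of the related lists, called ones among them, are not reported here and are left out of the list counts. From each related list the rule names each called gene and the gene with the highest mean TPM. Alternatives were a replicate block, a pseudocount of 0.1, no filter, a filter at 5 TPM, median-ratio scaling, a prior without trend, and leaving out each library. The ratio of IDH1 and IDH2 to IDH3, and the prior without trend for the related genes, were added after seeing the data.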

Additional observations from a re-analysis of the deposited data

How the results depend on the processing

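The 992 calls over all rows (706 higher and 286 lower, limma) depended on the processing. With no filter on low values 0 rows were called (0 higher, 0 lower, with 5072 at an unadjusted p under 0.05), and with no trend in the prior 2 were higher and 2 lower. With a filter at 5 TPM 928 were higher and 442 lower. Median-ratio scaling moved the median of all rows by −0.10 on the log2 scale and left 377 higher and 398 lower, so that 48.6% of calls were higher, against 71.2%. Without 1 library, 0 to 8 were higher and 0 to 7 lower. Of the 9 genes, 2 were called with the replicate block (IDH1 at adjusted p = 0.0457 and IDH2 at 0.0426), and 0 with no filter, with median-ratio scaling, with no trend, and without any 1 library (0 to 0). Of the related genes reported here 1 was called (SLC40A1). With a filter at 5 TPM, which SLC40A1 did not pass, 2 others were (GOT1 and BCAT2), and with median-ratio scaling TFRC alone was. The number was 0 with the replicate block, 0 with no filter, 0 with no trend and 0 to 0 without 1 library. The replicate numbers were not treated as pairs, since same-numbered libraries deviated together by a correlation of only 0.04 over all rows, and the block gave 1207 calls, with SLC40A1 no longer among them (adjusted p = 0.0560).

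Some small differences changed sign. With median-ratio scaling the log2 fold change was −0.057 for OGDH, −0.088 for MDH2, −0.064 for MDH1 and −0.061 for DLST. Without 1 library it ranged from −0.0021 to 0.11 for OGDH, −0.037 to 0.082 for MDH2, −0.0078 to 0.34 for PDHA1 and −0.16 to 0.069 for PSAT1. For the IDH1 to IDH2 ratio the range was −0.32 to 0.051. The cause of these changes was not tested. Of the alternative values for the 9 genes, 80 kept their direction and side of the threshold, 7 were past it no longer, 1 newly passed it and 2 changed sign. Using every row of a symbol gave no further value, since no symbol of these genes repeats. With 2 libraries a group, differences smaller than the intervals given cannot be resolved.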
